A study of Mus musculus with 4 samples.

Results

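The regions described here are the accessible sites that the deposited table links to an Ensembl gene id but to no gene name. The rule takes every row with a gene id and an empty gene name, which gave 3023 of the 35019 regions in the table, linked to 2594 gene ids. The other regions comprise 11829 linked to a named gene and 20167 with no linked gene. The rule used no measured value. The assay was ATAC-seq, in which Tn5 transposase inserts sequencing adapters into open chromatin, and the material was quiescent satellite cells of mdx and of wild type mice, isolated by flow cytometry. Satellite cells are the stem cells of skeletal muscle, and mdx mice lack functional dystrophin in all their cells and model Duchenne muscular dystrophy. There were 2 libraries from mdx and 2 from wild type, while the design text names 3 mice per condition; the labels give neither age nor strain. Nothing in the labels ties a library to 1 animal, so a p-value reflects only how far these libraries lie apart, and that spread may be technical.

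The gene ids without a name belong almost entirely to genes that do not code for protein: 2940 of the 3023 regions, or 97.3%, carry a type other than protein_coding, whereas 99.8% of the regions with a named gene are protein_coding. Long intergenic noncoding RNAs (lincRNA in the file) and antisense RNAs are transcribed like messenger RNAs but yield no protein, and some act on the genes beside them. A microRNA hairpin is processed into a short RNA whose seed pairs with messenger RNAs and lowers their output. A processed pseudogene is a messenger RNA copied back into the genome, as a rule without its promoter, an unprocessed pseudogene is a disabled duplicate of a gene, and the type TEC is a placeholder for transcripts still awaiting experimental evidence. A start of transcription is usually marked by open chromatin, and open regions away from starts include enhancers.

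Sequences are shown first for 3 promoters that overlap such regions and that the results return to: that of the region with the largest increase among those above the median level of tested regions, one of those lower in mdx, and that of the region with the highest values. They are RefSeq promoters (GRCm38.p6), written 5′ to 3′ on the strand of the gene from 250 bases before to 50 after the start. Capitals mark 3 motifs searched on both strands, TGANTCA (the AP-1 site), CAGCTG (an E-box of the kind that MyoD binds) and the GC box, GGGCGG or its reverse complement CCGCCC; GC boxes that overlap run together. Of the 32851 promoters in the RefSeq table, 7.81% hold TGANTCA, 16.3% hold CAGCTG and 35.7% hold a GC box. The A530046M15Rik promoter (chr13:15806993-15807292, plus strand) holds 3 matches to TGANTCA and has 46% G and C with 4 CpG.
A530046M15Rik: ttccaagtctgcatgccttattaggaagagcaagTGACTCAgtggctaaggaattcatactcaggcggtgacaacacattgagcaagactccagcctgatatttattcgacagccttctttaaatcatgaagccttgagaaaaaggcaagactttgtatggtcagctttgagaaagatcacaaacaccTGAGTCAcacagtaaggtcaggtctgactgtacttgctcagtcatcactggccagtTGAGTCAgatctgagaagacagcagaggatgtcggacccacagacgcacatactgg
The 1810037I17Rik promoter (chr3:122924147-122924446, plus strand) has 70% G and C with 36 CpG and holds 3 GC boxes.
1810037I17Rik: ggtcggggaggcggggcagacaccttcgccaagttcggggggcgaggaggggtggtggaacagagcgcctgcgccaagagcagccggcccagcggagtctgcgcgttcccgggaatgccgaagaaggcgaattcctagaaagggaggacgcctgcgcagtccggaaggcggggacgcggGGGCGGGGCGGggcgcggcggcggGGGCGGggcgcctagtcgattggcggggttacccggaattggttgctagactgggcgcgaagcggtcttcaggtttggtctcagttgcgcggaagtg
The Dipk2a promoter (chr9:94538032-94538331, minus strand) has 76.7% G and C with 43 CpG and holds 2 GC boxes.
Dipk2a: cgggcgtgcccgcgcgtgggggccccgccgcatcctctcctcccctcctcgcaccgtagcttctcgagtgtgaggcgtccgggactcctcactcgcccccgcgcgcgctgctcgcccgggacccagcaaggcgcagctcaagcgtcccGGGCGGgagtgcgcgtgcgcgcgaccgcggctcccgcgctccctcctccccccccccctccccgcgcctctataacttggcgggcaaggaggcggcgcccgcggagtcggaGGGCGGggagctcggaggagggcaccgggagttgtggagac
A match is a description of the letters only.

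Mature microRNAs are shown for 3 hairpins, the most familiar of those linked to a region that passed the test (Mir21a higher and Mir148a lower in mdx) and the muscle microRNA Mir206, whose regions did not pass. They are RefSeq sequences in RNA letters with the seed, bases 2 to 8, in capitals. The spans from one mature arm to the other are chr11:86584082-86584141 for Mir21a (minus strand), chr6:51269829-51269888 for Mir148a (minus strand) and chr1:20679017-20679076 for Mir206 (plus strand).
mmu-miR-21a-5p: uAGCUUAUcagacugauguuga
mmu-miR-148a-3p: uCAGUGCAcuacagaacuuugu
mmu-miR-206-3p: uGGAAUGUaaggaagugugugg
These 3 seeds differ from one another, and so do those of the 19 mature sequences read. These 19 come from only a few of the 103 hairpins assigned to regions by position, and the seeds of the others were not compared.

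Values are scaled reads per region, and behave as reads multiplied by 1 factor per library and rounded. Reads recovered in the listed regions, in units of 1e6, came to 3.21 and 3.61 in mdx, and 3.69 and 8.17 in wild type, where the last is an estimate. The libraries also differed in where their reads fell. Regions within 1 kb of any linked start held 51.1% and 55.4% of the nuclear values in mdx, and 62.7% and 59.6% in wild type, and mitochondrial regions held 17.7% and 13.7% of all values in mdx, and 14.0% and 9.31% in wild type. Among markers of the sorted cells, 7 of 12 satellite cell genes had a region at their start, including Pax7 (values of 90 and 103 in mdx, against 93 and 124 in wild type) and Myf5. Calcr, Cdh15, Itga7, Notch3 and Vcam1 had no such region. Of markers of other cells, 6 of 10 fibro-adipogenic, 1 of 7 endothelial, 3 of 8 myofibre and 0 of 8 immune genes had one. Summed values over the satellite cell list were 1371 and 1497 in mdx, against 1846 and 1729 in wild type, with 1 of 9 regions lower (Met) and 0 higher. Much of that gap came from Met alone, with 265 and 352 in mdx, against 627 and 542 in wild type. The median difference over the 9 regions was -0.16 (log2). Over the fibro-adipogenic list the sums were 396 and 422 in mdx, against 317 and 308 in wild type, and 0 of 6 regions passed with limma in either direction. In that list Cd34 went the other way from the sum, with 53 and 72 in mdx, against 132 and 87 in wild type. The defining genes Pdgfra and Ly6a of that list had no region at their start, nor did Dpt and Lum. The sums were 152 and 131 in mdx, against 131 and 146 in wild type, over the endothelial list (0 of 1 passed), and 415 and 531 in mdx, against 543 and 468 in wild type, over the myofibre list (1 of 3 higher, Casq1). In the myofibre list Mylpf went the other way from Casq1, with 231 and 351 in mdx, against 475 and 364 in wild type. Myh1 went with Casq1, at 87 and 110 in mdx, against 44 and 73 in wild type, and neither Mylpf nor Myh1 passed. The part of these differences in the results below was not tested, and in sorted pools a change in the share of cells that are open and a change in openness per cell cannot be told apart.

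By gene type, lincRNA was the most frequent with 820 regions, followed by processed pseudogenes with 589, antisense RNAs with 377, TEC with 360 and microRNAs with 202. The remaining types with at least 20 regions were processed transcripts with 133, small nuclear RNAs (snRNA) with 99, protein_coding with 83, unprocessed pseudogenes with 72, small nucleolar RNAs (snoRNA) with 68, misc_RNA with 57, transcribed unprocessed pseudogenes with 50, sense_intronic RNAs with 43 and ribosomal RNA (rRNA) with 30. A further 40 regions fell into 11 rarer types. Most gene ids, 2296 of 2594, had 1 region. An accepted symbol could be given by position to 922 of the gene ids, or 35.5%, of which 477 are numbered Gm predictions, 204 are Riken clones and 103 are microRNA hairpins.

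These regions lay farther from the linked start than those of named genes. The median distance from region centre to start was 1775 bp (quartiles 410 and 3464 bp), against 117 bp for regions with a named gene, and 97.2% lay within 5 kb. Within 1 kb of the start lay 1129 regions and farther away 1894. The share within 1 kb was 80.7% for protein_coding and 66.2% for processed transcripts, which are spliced RNAs with no long reading frame. It was 48.9% for lincRNA, 37.1% for antisense RNA, 31.9% for TEC, 26.2% for microRNAs and 21.7% for processed pseudogenes. The regions were also narrower, with a median width of 319 bp against 510 bp, and lower, with a median value over the 4 libraries of 41.5 against 108.5 for named genes. Within 1 kb of the start the median value was 51.25, against 122 for named genes.

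**Figure D1:**
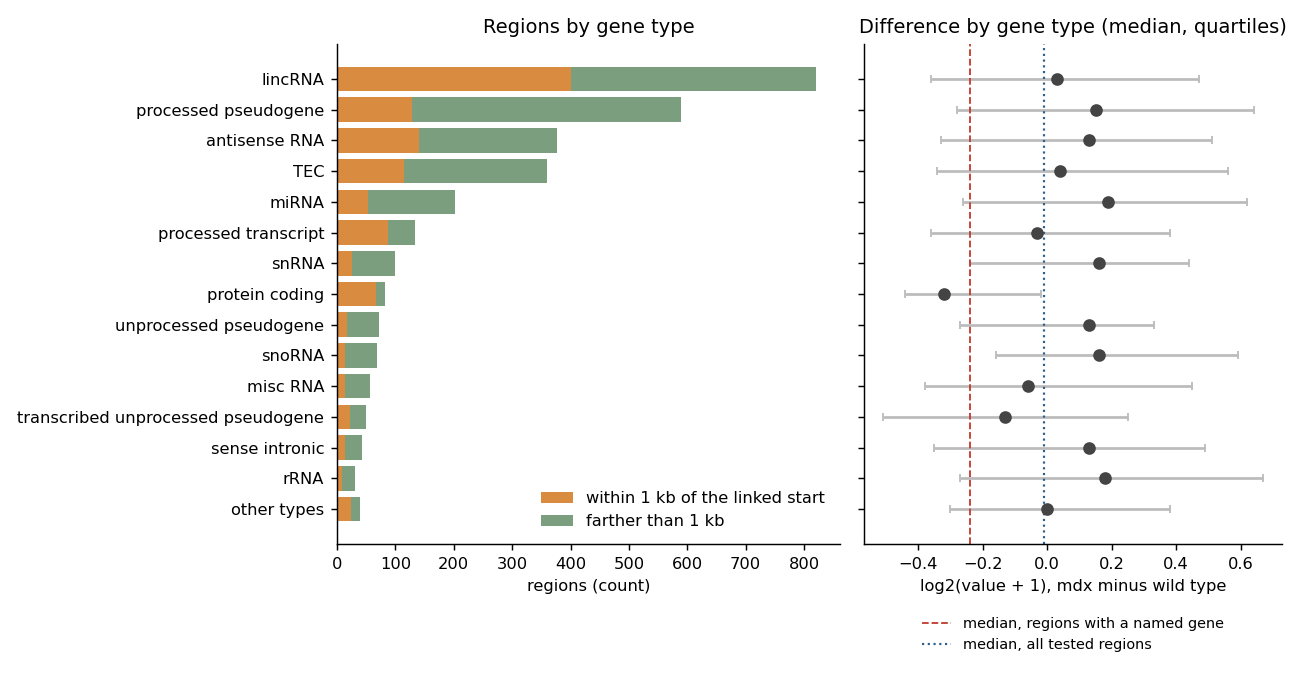
Regions with a gene id and no gene name, by the gene type in the file. Left, number of regions within 1 kb of the linked start and farther away; right, median and quartiles over tested regions of the mdx minus wild type difference in log2(value + 1), with dashed and dotted lines at the medians of regions with a named gene (-0.24) and of all tested regions (-0.01). The protein_coding type, at -0.32, is the one type whose median lies below that of named genes.

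The 10 regions with the highest values were all within 333 bp of their linked start, and 9 of them had lower values in both mdx libraries than in either wild type library, although cyclic loess scaling turned the difference of 3 of these 9 positive. Both mdx values lay below both wild type values in 25.0% of the 1057 tested start-proximal regions of the set, in 45.7% of the 9973 start-proximal regions of named genes and in 25.9% of all tested regions. Both lay above in 26.8% of all tested regions, so a gap between groups of 2 libraries is common in this table. The highest was that of Dipk2a (chr9:94537322-94538944), a coding gene whose product is a kinase-like protein of the secretory pathway, with values of 2146 and 2714 in mdx, against 3235 and 2909 in wild type. Its difference of -0.35 ± 0.13 (log2, SE) had an adjusted p of 0.145 (limma, Benjamini-Hochberg over all tested regions). The region of AW549877 had 991 and 1147 in mdx, against 1667 and 1377 in wild type, with an adjusted p of 0.0674. The one region of these 10 without a gap between groups was a lincRNA start at chr1:7397629-7398520, with 1226 and 1272 in mdx, against 1278 and 1242 in wild type. The rest of the 10 were 3 TEC, 1 antisense RNA, a lincRNA 102.5 bp from the start of Pnpla8, the processed transcript 4932412D23Rik and a lincRNA near Klf9 that passed the test and is described below. In all, 9 regions had a mean value of at least 1000, and 662 had at least 100.

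The comparison of mdx with wild type asks how open chromatin of muscle stem cells differs in dystrophic muscle. Of the 3023 regions, 2755 reached 10 in 2 or more libraries and were tested together with every other region that did so, 33161 in total. Among them 85 were higher in mdx and 18 lower at an adjusted p under 0.05, which is 3.09% and 0.653%. The background over all tested regions was 4.18% called in either direction, 3.3% higher and 0.881% lower, so both shares lay near the background. For regions with a named gene the shares were 0.672% higher and 1.64% lower, and for regions with no linked gene 4.96% higher and 0.447% lower. The calls rest on both libraries of each group, since with any 1 of the 4 left out 1 group has a single library. In those fits the median difference of the set lay between 0.03 and 0.10. The split between directions depended on the scaling: 157 higher and 10 lower with the medians of start-proximal regions set equal between libraries, and 88 higher and 192 lower with those of distal regions set equal.

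The 85 regions that rose had differences from 0.85 to 4.25 on the log2 scale, with a median of 1.79. They comprised 33 lincRNA, 13 processed pseudogenes, 11 antisense RNAs, 10 TEC, 10 microRNAs and 8 of other types. Of these 85, 30 lay within 1 kb of the linked start and 55 farther away. In 14 of them both wild type libraries had values under 10, so these met the filter only through their mdx values. The value of mdx replicate 1 exceeded that of mdx replicate 2 in 65 of the 85, against 52.6% of the 2755 tested regions. The 18 that fell had differences from -2.91 to -0.70, with a median of -2.08, and 13 of them lay within 1 kb of the start. In 4 of these 18 both mdx libraries had values under 10, so these met the filter only through their wild type values. In all 85 and all 18 the groups did not overlap, so a gap is no separate support for a region that passed.

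The largest difference among regions above the median level of tested regions was at the start of the lincRNA A530046M15Rik (chr13:15806884-15807252), whose promoter is shown above. Its values were 228 and 89 in mdx, against 15 and 9 in wild type. Both mdx libraries were well above both wild type libraries, and mdx replicate 1 stood far above mdx replicate 2. The difference was 3.50 ± 0.47 (log2, SE; 11.3-fold) with an adjusted p of 0.00468. A second region that rose lay 4491 bp away at the start of the lincRNA 4933412O06Rik, on the other strand, with 98 and 82 in mdx, against 27 and 25 in wild type (1.75, adjusted p 0.0194). The nearest coding gene body was that of Gli3, a transcription factor of Hedgehog signalling, 77042 bp away.

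The lincRNA Gm34240 (chr3:63439766-63440114) had 207 and 136 in mdx, against 27 and 32 in wild type. The groups were far apart, and at 2.47 ± 0.32 (5.55-fold) with an adjusted p of 0.00415 this was the smallest p among all 85 regions that rose. It lay 41155 bp from Strit1, which encodes a micropeptide that stimulates the calcium pump of the muscle reticulum. A lincRNA region at chr4:64078108-64078485, 31281 bp from Tnc, the gene for the matrix protein tenascin C, had 211 and 163 in mdx, against 18 and 65 in wild type (2.40 ± 0.46, adjusted p 0.0183). Another lincRNA region, 1856 bp from it by their centres, had 58 and 21 in mdx, against 1 and 3 in wild type, and also passed (adjusted p 0.0224). The wild type values of that second region were under 10, so it met the filter only through its mdx values. At both regions the wild type values lay below the mdx values, as they did in all 85 that rose.

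Among antisense RNAs, a region at chr4:9287289-9287681 inside Clvs1 had 137 and 141 in mdx, against 21 and 32 in wild type (2.38 ± 0.33, adjusted p 0.00571). A region at chr1:62721769-62722096 inside Nrp2, which encodes the semaphorin and VEGF receptor neuropilin 2, had 106 and 88 in mdx, against 20 and 18 in wild type (2.29 ± 0.36, adjusted p 0.00851). In both the replicates were close and the groups did not overlap. Above the median level of tested regions, a pair of snoRNA predictions were among the 10 largest increases. Gm25406, inside the acyltransferase gene Lclat1, had 180 and 113 in mdx, against 5 and 30 in wild type (3.40 ± 0.61, adjusted p 0.0134), so its wild type libraries differed severalfold. The region linked to Gm24334 lay 3566 bp from its start and 1500 bp from Serpina3n, a protease inhibitor gene. It had 376 and 220 in mdx, against 46 and 86 in wild type (2.17 ± 0.33, adjusted p 0.00833). A region 3411 bp from the start of Gm28710, of type protein_coding, had 145 and 63 in mdx, against 27 and 12 in wild type (2.34 ± 0.48, adjusted p 0.0233).

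Of the 18 regions that fell, 6 were above the median level of tested regions. The most open of them was a lincRNA start at chr19:23134008-23136200, 6122 bp from Klf9, a zinc finger transcription factor that responds to glucocorticoids. Its values were 849 and 866 in mdx, against 1501 and 1364 in wild type, so the replicates of each group lay close together and the groups apart. The difference was -0.74 ± 0.13 (1.67-fold lower) with an adjusted p of 0.0151. The start of 1810037I17Rik (chr3:122924046-122924728), whose promoter is shown above, had 196 and 191 in mdx, against 407 and 300 in wild type (-0.85 ± 0.21, adjusted p 0.0434).

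A TEC region at chr5:31095263-31095670 inside Slc30a3, a zinc transporter gene, had 26 and 40 in mdx, against 99 and 89 in wild type (-1.51 ± 0.34, adjusted p 0.0329), the largest decrease of these 6. The lincRNA Gm11494 had 61 and 50 in mdx, against 129 and 114 in wild type (-1.12 ± 0.29, adjusted p 0.0481). A lincRNA start at chr15:68362639-68363736 had 531 and 615 in mdx, against 1093 and 805 in wild type (-0.71 ± 0.18, adjusted p 0.0412). None of these 3 overlapped between groups. A processed transcript start at chr3:122292863-122294181 had 254 and 251 in mdx, against 407 and 413 in wild type (-0.70 ± 0.18, adjusted p 0.0499), at the edge of the threshold. All 6 lay within 892 bp of their linked start.

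**Figure D2:**
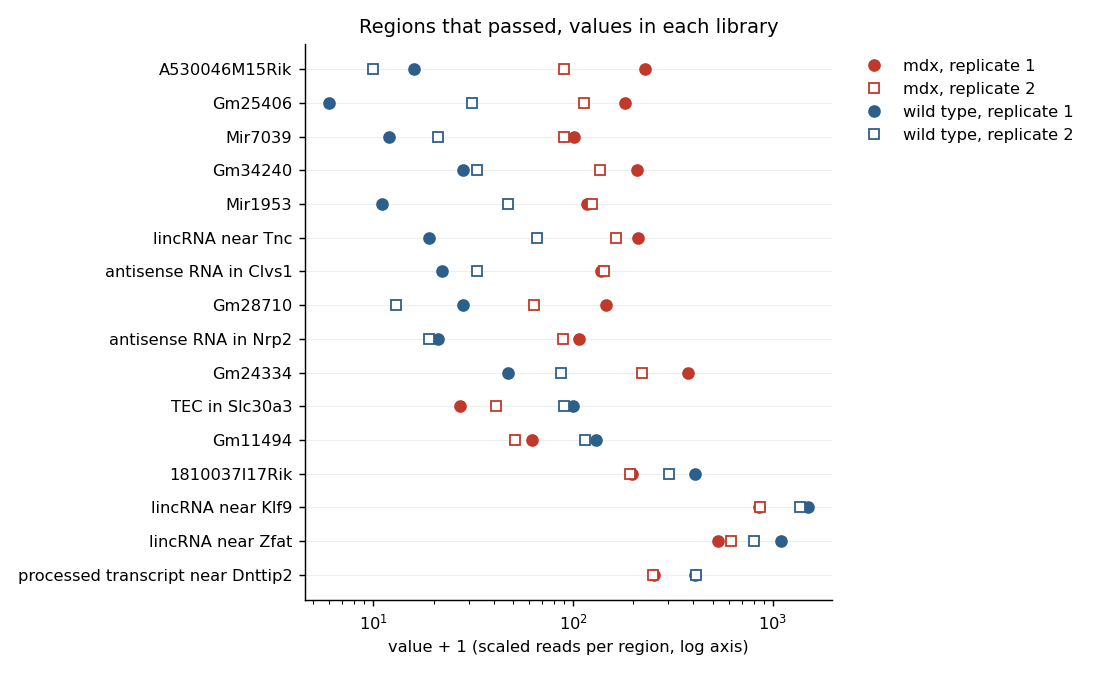
Values in each library (scaled reads per region plus 1, log axis) of the 10 largest increases and the 6 decreases among regions that passed and lie above the median level; filled and open symbols are replicates 1 and 2. Regions without a symbol are named by type and by the coding gene around or nearest to them. The 10 upper rows have both mdx values to the right of both wild type values and the 6 lower rows to the left, and the replicates of mdx are farthest apart for A530046M15Rik (228 and 89).

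Across all tested regions of the set the difference was centred near 0. The median was 0.06 (log2), against -0.24 for regions with a named gene, 0.22 for those with no linked gene and -0.01 for all tested regions. Within 1 kb of the start the median over 1057 regions was -0.03, with 30 higher and 13 lower (2.84% and 1.23%). For the 9973 regions with a named gene there it was -0.26, with 43 higher and 179 lower (0.431% and 1.79%). Farther than 1 kb the median over 1698 regions was 0.12, with 55 higher and 5 lower (3.24% and 0.294%). For the 1629 regions with a named gene there it was -0.03, with 35 higher and 11 lower (2.15% and 0.675%). Over all tested regions 3.3% were higher and 0.881% lower. Setting the medians of start-proximal regions equal moved the median of all tested regions to 0.19, and setting those of distal regions equal moved it to -0.35; the start-proximal set stood at 0.17 and -0.37 in those scalings, so its sign follows the scaling. The gap between the set and named genes within 1 kb was 0.23, which such shifts of whole libraries cannot change; it was 0.16 after cyclic loess, and between 0.17 and 0.32 with 1 library left out.

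As a value per library, the median log2 value within 1 kb of the start stood below that of named genes by 0.83 and 1.05 in mdx, and by 1.39 and 1.21 in wild type. The mdx mean of this gap was -0.94 ± 0.16 and the wild type mean -1.30 ± 0.13 (SD, n = 2 each), and an exact permutation test gave a two-sided p of 0.333, the smallest that 2 against 2 libraries allow. The regions of the set together held 6.95% and 6.74% of nuclear values in mdx, and 6.26% and 6.49% in wild type. Those within 1 kb held 3.20% and 3.23% in mdx, and 3.25% and 3.23% in wild type. Those farther away held 3.74% and 3.51% in mdx, and 3.0% and 3.25% in wild type. The share within 1 kb was thus nearly the same in all 4 libraries. Neither share overlapped between groups, though within 1 kb only narrowly, with 3.232% in mdx replicate 2 and 3.235% in wild type replicate 2. The exact permutation test gave a p of 0.333 for each share, the smallest possible.

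By distance, the median difference was -0.10 up to 100 bp, -0.05 beyond that up to 500 bp and 0.11 beyond that up to 1000 bp. It was 0.04 between 1000 and 2000 bp, and from 0.11 to 0.16 in the bins between 2000 and 5000 bp. For named genes the first 3 of these medians were -0.26, -0.27 and -0.22, the value between 1000 and 2000 bp was -0.16, and those between 2000 and 5000 bp were 0.01, 0.08 and 0.03. Named genes were thus lower in every one of these 7 bins. Beyond 5 kb the 80 tested regions of the set had a median of 0.28 and the 75 of named genes 0.32.

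**Figure D3:**
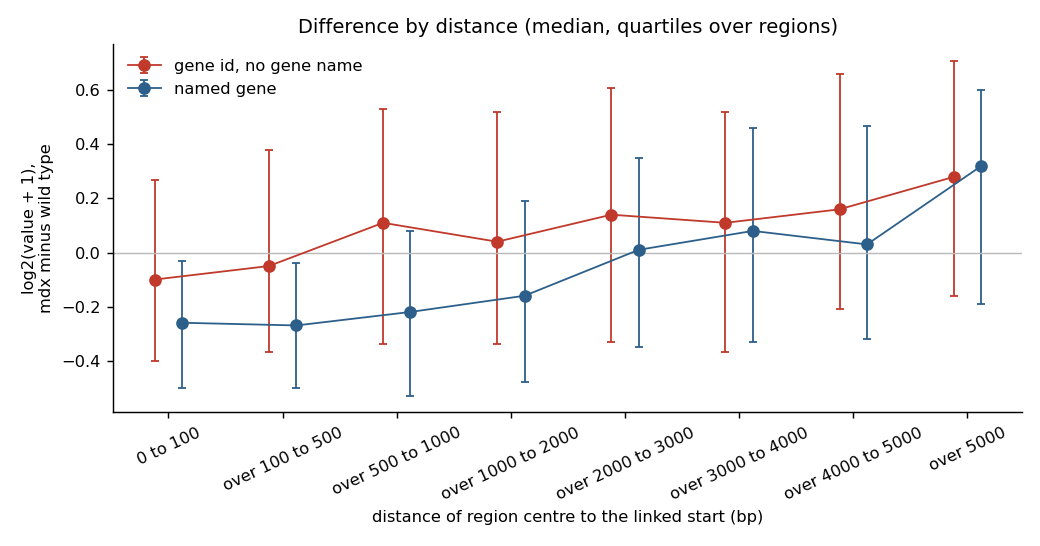
Median and quartiles over tested regions of the mdx minus wild type difference in log2(value + 1), by distance of the region centre to the linked start, for regions with a gene id and no name and for regions with a named gene. The medians of the unnamed set lie above those of named genes in each bin up to 5000 bp, and the quartiles of both sets overlap in each bin.

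Within 1 kb the median of the set stood above that of named genes in each range of level. Under a mean value of 25 it was -0.10 in the set and -0.43 for named genes. Among regions with a mean value of 25 to 50, the median difference was 0.01 in the set and -0.28 for named genes, and at 50 to 100 it was 0.12 and -0.24. At 100 to 200 it was -0.02 and -0.23, and at 200 and over -0.18 and -0.27, so the gap was narrowest among the most open regions. These are medians over regions, with no test.

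**Figure D4:**
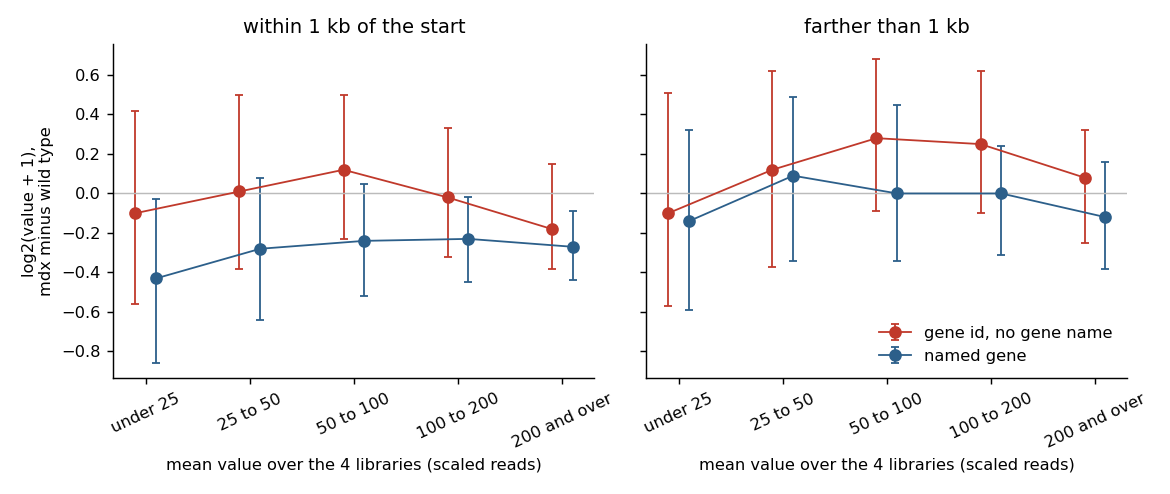
Median and quartiles over tested regions of the mdx minus wild type difference in log2(value + 1), by mean value over the 4 libraries, within 1 kb of the linked start (left) and farther away (right). Within 1 kb the medians of the unnamed set run from -0.18 to 0.12 and those of named genes from -0.43 to -0.23.

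Median differences also varied with gene type. The 83 protein_coding regions without a name, many of them coding genes with clone-based symbols such as 1810037I17Rik, had a median difference of -0.32 with 22.2% of tested regions above 0, beside -0.24 and 26.2% for named genes, of which nearly all code for protein. Of these, 1 was higher (Gm28710) and 1 lower (1810037I17Rik). Within 1 kb their median was -0.33, against -0.16 for processed transcripts, -0.03 for lincRNA, 0.11 for antisense RNA, 0.18 for processed pseudogenes and 0.30 for microRNAs. No test of the difference between types was made.

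Of 792 tested lincRNA regions 33 were higher and 7 lower, or 4.17% and 0.884%, with a median of 0.03. Over all tested regions these shares were 3.3% and 0.881%. Antisense RNAs had 11 higher and 2 lower of 363 (3.03% and 0.551%), with a median of 0.13. Processed transcripts had 1 and 1 of 131 (0.763% each), with a median of -0.03. TEC regions had 10 higher and 1 lower of 335 (2.99% and 0.299%). The TEC region with the smallest p, at chr13:17952344-17952493, had 28 and 22 in mdx, against 0 and 1 in wild type, with an adjusted p of 0.0226; both groups were shallow there, so no fold is given. Among processed transcripts, the region with the smallest p lay inside Has2, which makes hyaluronan, at chr15:56685597-56685985, 4153 bp from its linked start. It had 43 and 79 in mdx, against 16 and 12 in wild type (2.0 ± 0.45, adjusted p 0.0329). Of 42 tested sense_intronic regions 0 passed with limma, and the smallest p belonged to a region inside Lmo4, a transcription cofactor gene, at chr3:144198602-144198804, with 28 and 44 in mdx, against 82 and 69 in wild type (adjusted p 0.0999).

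Noncoding genes and pseudogenes with an established RefSeq symbol, taken as all those whose symbol is no clone, numbered prediction, numbered pseudogene or microRNA, came to 46 genes with 52 regions, among them Malat1, Meg3 and the imprinted transcripts Kcnq1ot1 and Airn. The list also holds Platr25, which has the type protein_coding in the file and is counted among the 83 protein_coding regions too. Of the 51 tested, 1 was higher and 0 were lower with limma, with 2 higher and 5 lower at an unadjusted p under 0.05, and the median difference was -0.22. With limma 3.3% of all tested regions were higher and 0.881% lower. The one that rose was a region 5022 bp from the start of the antisense RNA Srrm4os, inside the coding gene Srrm4. It had 116 and 99 in mdx, against 46 and 47 in wild type (1.19 ± 0.30, adjusted p 0.044), and the groups were well apart. The genes named next were chosen after their values were seen. Chaserr, the long noncoding RNA upstream of the chromatin remodeller gene Chd2, had 372 and 518 in mdx, against 849 and 623 in wild type (-0.73 ± 0.20, adjusted p 0.0621). Dancr had 451 and 475 in mdx, against 689 and 577 in wild type (-0.45 ± 0.17, adjusted p 0.136). Dnm3os, the host of the microRNAs 199a and 214, had 102 and 110 in mdx, against 83 and 97 in wild type (0.24 ± 0.27, adjusted p 0.633). None of these 3 overlapped between groups, and none passed. Among all tested regions, both mdx values lay below both wild type values in 25.9% and above them in 26.8%. Malat1 had 36 and 41 in mdx, against 64 and 45 in wild type (adjusted p 0.467), and Rn7sk had 524 and 490 in mdx, against 382 and 507 in wild type, where the groups overlapped.

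Of the 202 microRNA regions, 193 were tested, with 10 higher, 2 lower and a median of 0.19. That is 5.18% and 1.04%, beside 3.3% and 0.881% of all tested regions. A RefSeq hairpin could be assigned by position to 115 of the regions, for 103 hairpins; 110 of these regions were tested, of which 7 were higher and 1 lower. The regions mostly lay beside the hairpin rather than over it: 149 of the 202 were farther than 1 kb. The hairpin's first base is not the start of its primary transcript, so a region may belong to a host gene.

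The Mir21a region (chr11:86586851-86587421) lay 2978 bp upstream of the hairpin inside Vmp1, a gene of autophagy whose end overlaps the hairpin. Its values were 177 and 180 in mdx, against 78 and 80 in wild type, so the replicates of each group were close and the groups apart. The difference was 1.17 ± 0.24 (2.24-fold) with an adjusted p of 0.0244. miR-21 is widely studied in fibrosis, including that of dystrophic muscle. The Mir148a region (chr6:51270707-51271379), 1133 bp upstream of its hairpin, had 12 and 28 in mdx, against 82 and 82 in wild type. Both mdx values were below both wild type values, and the difference was -2.10 ± 0.43 (4.27-fold lower) with an adjusted p of 0.0234. miR-148a has been described as promoting differentiation of myoblasts in mouse.

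The region linked to Mir7039, 1858 bp from its start and inside the ubiquitin ligase gene Smurf1, had 100 and 89 in mdx, against 11 and 20 in wild type (2.59 ± 0.40, adjusted p 0.00871). Mir1953 had a region 4964 bp away with 117 and 124 in mdx, against 10 and 46 in wild type (2.42 ± 0.53, adjusted p 0.0291), while the region 175 bp from its start had 33 and 14 in mdx, against 9 and 19 in wild type, where the groups overlapped. The other 4 that rose were linked to Mir344-2, Mir6407, Mir7685 and Mir6390, with differences of 2.30, 1.30, 1.29 and 1.09. They lay 69, 2397, 4924 and 491 bp from those starts. The region of Mir344-2 was the only one of the 7 that lay within 100 bp of the hairpin's start, and its values were low, 46 and 28 in mdx, against 7 and 6 in wild type.

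Mir206, a microRNA of skeletal muscle that MyoD induces, had 2 regions, neither of which passed. The one 861 bp away had 435 and 382 in mdx, against 341 and 292 in wild type (0.37 ± 0.18, adjusted p 0.256), and the one 4392 bp away had 97 and 96 in mdx, against 136 and 98 in wild type (-0.26 ± 0.27, adjusted p 0.61). In each the groups did not overlap, which is common with 2 libraries per group, and the directions were opposite. Mir486, inside the ankyrin gene Ank1, had 203 and 170 in mdx, against 200 and 203 in wild type. Mirlet7i had 380 and 396 in mdx, against 425 and 450 in wild type (adjusted p 0.58).

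**Figure D5:**
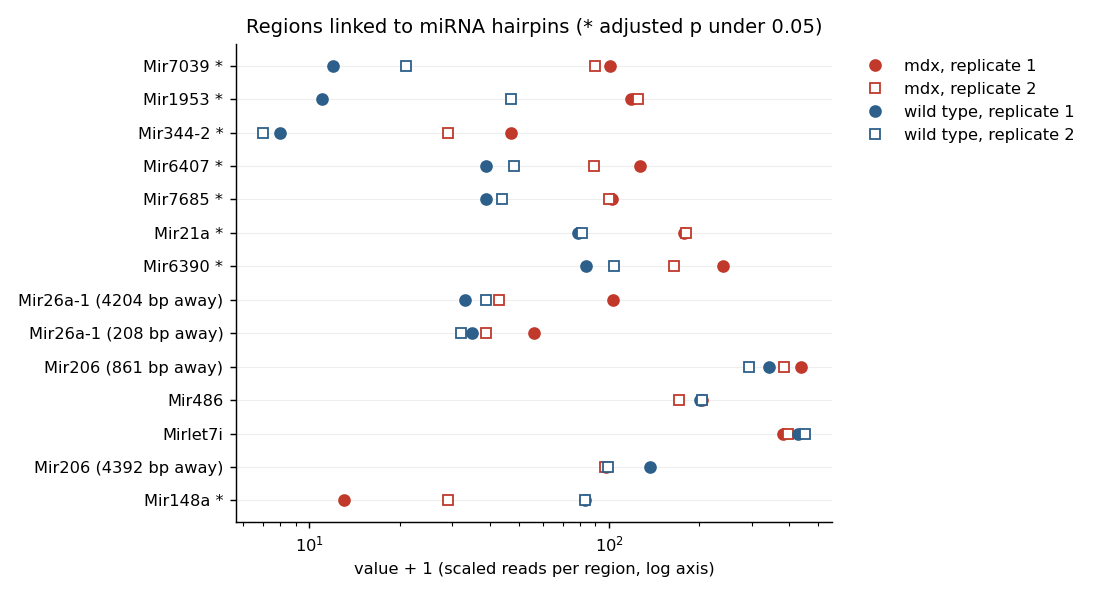
Values in each library (scaled reads per region plus 1, log axis) of the 8 regions of microRNA hairpins that passed, marked with an asterisk, and of 6 regions of Mir206, Mir26a-1, Mirlet7i and Mir486 that did not; filled and open symbols are replicates 1 and 2. The 7 upper regions have both mdx values to the right of both wild type values, and Mir148a at the bottom has them to the left (12 and 28 against 82 and 82).

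Genes with near-identical copies need separate reading, since the labels do not say how reads matching several copies were counted. Of 479 tested processed pseudogene regions 13 were higher and 2 lower (2.71% and 0.418%, beside 3.3% and 0.881% of all tested regions), with a median of 0.15. The one with the smallest p, at chr9:89667440-89667912, had 163 and 166 in mdx, against 28 and 51 in wild type (2.09 ± 0.33, adjusted p 0.00873). Pseudogenes of ribosomal protein genes, 15 tested regions by RefSeq symbol, had 1 higher, 4079 bp from the start of Rps18-ps2. It had 209 and 136 in mdx, against 43 and 59 in wild type. Among the small RNA families, 2 of 97 snRNA, 2 of 66 snoRNA, 1 of 57 misc_RNA and 1 of 30 rRNA regions were higher, and 1 snoRNA region was lower. The snRNA prediction Gm26411 had 106 and 60 in mdx, against 18 and 24 in wild type (1.89 ± 0.40, adjusted p 0.0252). An rRNA region at chr4:111431180-111431680, 3497 bp from its linked start, had 281 and 258 in mdx, against 99 and 158 in wild type (1.10 ± 0.25, adjusted p 0.0342). A misc_RNA region at chr13:51018469-51018711, 4504 bp from its linked start, had 59 and 78 in mdx, against 20 and 17 in wild type (1.82 ± 0.39, adjusted p 0.0258). These 3 regions had no overlap between groups.

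The 268 regions that were not tested were concentrated in a few places. Of them, 181 fell into 13 windows of 1 Mb, led by megabase 130 of chromosome 6 with 39 and megabase 20 of chromosome 12 with 24, where pseudogene types prevailed. Untested regions made up 43 of 72 unprocessed pseudogene regions, 28 of 50 transcribed unprocessed ones and 110 of 589 processed ones, against 28 of 820 lincRNA regions. The 3 gene ids with the most regions, 14, 10 and 9, were all processed pseudogenes, at chr6:130833449-130845141, chr6:130824194-130831019 and chr12:20307693-20316762. At the first, the most open of 14 regions had 50 and 38 in mdx, against 18 and 27 in wild type, and the others had values of 15 or less. Among the 29 tested unprocessed pseudogene regions and the 22 transcribed ones, 0 passed with limma. The smallest p in the first type belonged to chr7:8357866-8358563, with 7 and 8 in mdx, against 20 and 20 in wild type (adjusted p 0.2), and in the second to 9030619P08Rik, with 73 and 82 in mdx, against 27 and 40 in wild type (adjusted p 0.0699).

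A second peculiarity of the set was 17 regions wider than 10 kb, of 47 in the table, the widest with 118276 bp on chromosome Y over the lincRNA 1700020D14Rik. That region had 135 and 162 in mdx, against 61 and 68 in wild type (1.19 ± 0.27, adjusted p 0.032). The 17 held 2 others that passed, both processed pseudogenes and both higher: one on chromosome 1 with 484 and 659 in mdx, against 322 and 305 in wild type, and one on chromosome 12 with 158 and 164 in mdx, against 65 and 86 in wild type. Over all tested regions 3.3% were higher, and the calls among the other regions this wide were not counted. With only 17 regions the share called is uncertain. Differences over such widths average over many sites.

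Few of these regions shared their site with the start of a coding gene. The centre of 116 regions, or 3.84%, lay within 1 kb of the start of another, coding gene, 75 of them also within 1 kb of their own linked start. Of the 110 tested, 0 were higher and 1 was lower (0.909%), with a median difference of -0.18 and 30.9% above 0. The 2645 tested regions with no such neighbour had 85 higher and 17 lower (3.21% and 0.643%), a median of 0.08 and 54.7% above 0. Over all tested regions 3.3% were higher and 0.881% lower, shares at which few of 110 regions would be called. The regions with a coding start nearby were wider, at a median of 515 bp against 314 bp, and more open, at a median value of 84.75 against 40.25. The contrast in difference was not particular to the set. Among regions with no linked gene the median was -0.22 over 417 tested with such a neighbour and 0.23 over 18387 without. For named genes the medians were -0.25 over 935 and -0.24 over 10667. Starts were known for 89.4% of coding genes, so some neighbours may be missed. Of all 2755 tested regions 36.2% lay inside a coding gene, as did 30 of the 85 that rose and 4 of the 18 that fell.

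The base composition of promoters could be read where the RefSeq table holds the promoter of the linked gene and it overlaps the region, which was so for 206 regions with 229 promoters. These promoters had a median of 55% G and C and 13 CpG in 300 bases, between the 63.3% and 23 CpG of 7672 promoters that overlap regions of named genes and the 52.7% and 7 CpG of all promoters in the table. A GC box was found in 44.1% of them, against 73.7% for named genes, and TGANTCA in 6.99%, against 4.0%. By type, promoters of protein_coding members had 62.3% G and C and 22 CpG, and those of lincRNA had 52.7% and 8 CpG, with TGANTCA in 11.5% of 113. Among regions that passed, 6 higher and 1 lower had a promoter to read, of which 1 higher, A530046M15Rik, held TGANTCA. These 7 are too few to set against the other promoters.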

How the data were processed

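ATAC-seq was measured in 2 mdx and 2 wild type libraries of sorted quiescent satellite cells. The submitters' processing notes name MACS2 2.1.0, STAR 2.5.3a, Trimmomatic 0.33, Picard 2.9.0, DESeq, DESeq2 and mm10; the labels do not give their settings, the Tn5 offset, duplicate handling or whether regions were called per library. The authors deposited whole numbers, treated here as a score because they are reads multiplied by 1 factor per library and rounded, which was read from the values: factors of 1.382, 1.162 and 1.222 skip 111, 56 and 73 whole numbers up to 400, and 0 values fall on a skip. The factor of wild type replicate 2, 0.492, was computed from the other 3 on the assumption that the columns were scaled by median of ratios, so its recovered reads are an estimate. A count test was therefore not used as the main test, as the plan had provided for scaled values. The fraction of a region that overlaps the gene body, also deposited by the authors, was left aside. Coordinates are printed as deposited, with no statement of whether the first base is 0 or 1.

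Limma 3.58.1 in R 4.3.3 was run with an intensity trend on log2(value + 1) over the whole table, on the group alone. Regions that reached 10 in 2 or more libraries were tested, with Benjamini-Hochberg adjustment and a threshold of 0.05. Differences are mdx minus wild type on that scale, which understates changes of low regions. The script was tested on simulated data. Start-proximal means a distance of at most 1000 bp.

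The files pair Ensembl ids with no symbols here, so symbols come from RefSeq genes (GRCm38.p6, the same reference as mm10) whose span overlaps by at least 0.8 with a fitting type and strand. For named genes this gave the deposited symbol or a synonym in 9607 of 9646 cases.

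Named regions follow a rule: the 10 highest and 10 lowest differences among regions that passed and exceed the median level of tested regions (54.5), of which 6 were lower; the 10 highest values; the smallest p of each type with at least 20 regions; and the 3 gene ids with most regions. Other regions were chosen after their values were seen. The members, marker lists and tests were chosen with earlier results of these data known. Marker lists covered satellite, fibro-adipogenic, endothelial, immune and myofibre cells. The labels' replicate numbers do not state a pairing, so no block was used. Alternatives changed the filter, pseudocount, scaling, chromosomes, test, threshold, window and libraries. A block with crossed numbers and a fit without regions over 10 kb were added after the data were seen.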

Additional observations from a re-analysis of the deposited data

How the results depend on the processing

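Against 85 higher and 18 lower regions, no filter on low values gave 29 and 3, a pseudocount of 0.1 gave 65 and 10, and a pseudocount of 10 gave 129 and 34. A mean value of at least 50 gave 112 and 30, cyclic loess 131 and 39, an adjusted p under 0.1 191 and 58, equal start-proximal medians 157 and 10, and equal distal medians 88 and 192. Without 1 library the counts ranged from 0 to 0, in fits where the lone library is assumed to vary like the other group. The replicate block gave 164 and 36. Same-numbered libraries deviated with a correlation of -0.109 over 33161 regions, and the crossed block gave 290 and 107. Library totals, autosomes only, voom and regions up to 10 kb kept both counts within 1.5 times.

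Median differences over all, start-proximal and start-distal regions (0.06, -0.03 and 0.12) became 0.27, 0.17 and 0.32 with equal start-proximal medians and -0.27, -0.37 and -0.22 with equal distal medians. A mean value of at least 50 gave 0.12 over all and 0.23 over start-distal regions. Other settings moved them by less than the spread of libraries.

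Of the 37 named regions tested, 22 passed. No filter lost 12 of them, a pseudocount of 0.1 lost 5, and equal start-proximal medians lost 3. In 5 regions, the difference changed sign, and none of them had passed. Under cyclic loess Dipk2a stood at 0.09, the TEC regions at chr8:4677339-4678724 and chr1:23255921-23256921 at 0.11 and 0.05, the lincRNA at chr1:7397629-7398520 at 0.34 and the pseudogene region at chr6:130835894-130836899 at 0.18. That lincRNA stood at 0.19 with equal start-proximal medians and between -0.04 and 0.01 with 1 library left out. That pseudogene region stood between -1.68 and 1.23 with 1 library left out, at 1.01 without mdx replicate 1. The cause was not tested. Depth limits regions with values near 10, where a few reads set the difference.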
